A study of Mus musculus with 6 samples.

Results

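Transcripts of 33 genes of mature oligodendrocytes and myelin were compared in the hippocampus of mice of the strains C57BL/6 and DBA/2, inbred lines often used as parents of genetic crosses. The 33 genes were chosen by name and all were found among the 51912 genes of the deposited table. RNA had been sequenced from 3 libraries per strain, and the series asked how transcript levels differ by strain. No treatment is named for either group, and sex, age and substrain are not given in the labels. The labels describe frozen hippocampus samples taken at random within a strain and do not say plainly whether a library is 1 animal, so the p-values measure the spread over these libraries alone, part of which may be technical.

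Oligodendrocytes wrap axons of the central nervous system in myelin, a stack of lipid-rich membrane held together by a small set of abundant proteins. The sheath depends on galactolipids, whose synthesis needs dedicated enzymes, and on transcription factors that switch on the myelin program when a precursor matures. In the hippocampus such cells are dense in the fibre tracts that border it and sparser among the neurons. In whole tissue, fewer oligodendrocytes and less RNA per oligodendrocyte cannot be told apart.

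Myelin and oligodendrocyte genes mostly had lower mean levels in DBA/2, but most did not pass the test. Of the 33 genes, all of which passed the filter on low counts, 10 were lower and 1 was higher at an adjusted p under 0.05 in edgeR's quasi-likelihood test, and 22 did not pass. Over all 17517 genes tested, 22.8% were called, 13.7% lower and 9.09% higher. The genes called lower were Mog, Pllp, Opalin, Hapln2, Fa2h, Aspa, Ppp1r14a, Plekhh1, Trf and Qdpr, and the gene called higher was Car2. The median log2 fold change of the 33 genes, DBA/2 over C57BL/6, was -0.38, against 0.00 for all tested genes, and 31 of the 33 had a value below 0, as did 49.4% of all tested genes. For 19 of the 33 every DBA/2 library lay below every C57BL/6 library, which held for 20.1% of all tested genes, and for 1 every DBA/2 library lay above, which held for 16.7%. Another 4 genes, Mobp, Mag, Mal and Cnp, had an adjusted p between 0.05 and 0.1.

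The count of genes called lower moved with single libraries. It was 5 with DBA/2 replicate 2 left out, a fit in which 12.6% of all tested genes were called lower. It was 17 with DBA/2 replicate 3 left out, where 12% of all tested genes were. Car2 was not called without DBA/2 replicate 2 (adjusted p = 0.0578). C57BL/6 replicates 1 and 3 carried Xist, the X-inactivation RNA of female cells, at 193 and 349 CPM, where CPM stands for counts per library total after TMM scaling. Xist was at 0.0729 CPM in C57BL/6 replicate 2 and at 0.144 to 0.705 CPM in DBA/2. Without those C57BL/6 libraries, which leaves 1 library in that strain that is assumed to vary like the DBA/2 libraries, 4 of the 33 genes were called lower (Mog, Pllp, Trf and Qdpr) and Car2 was called higher, while 7.25% of all tested genes were lower.

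**Figure D1:**
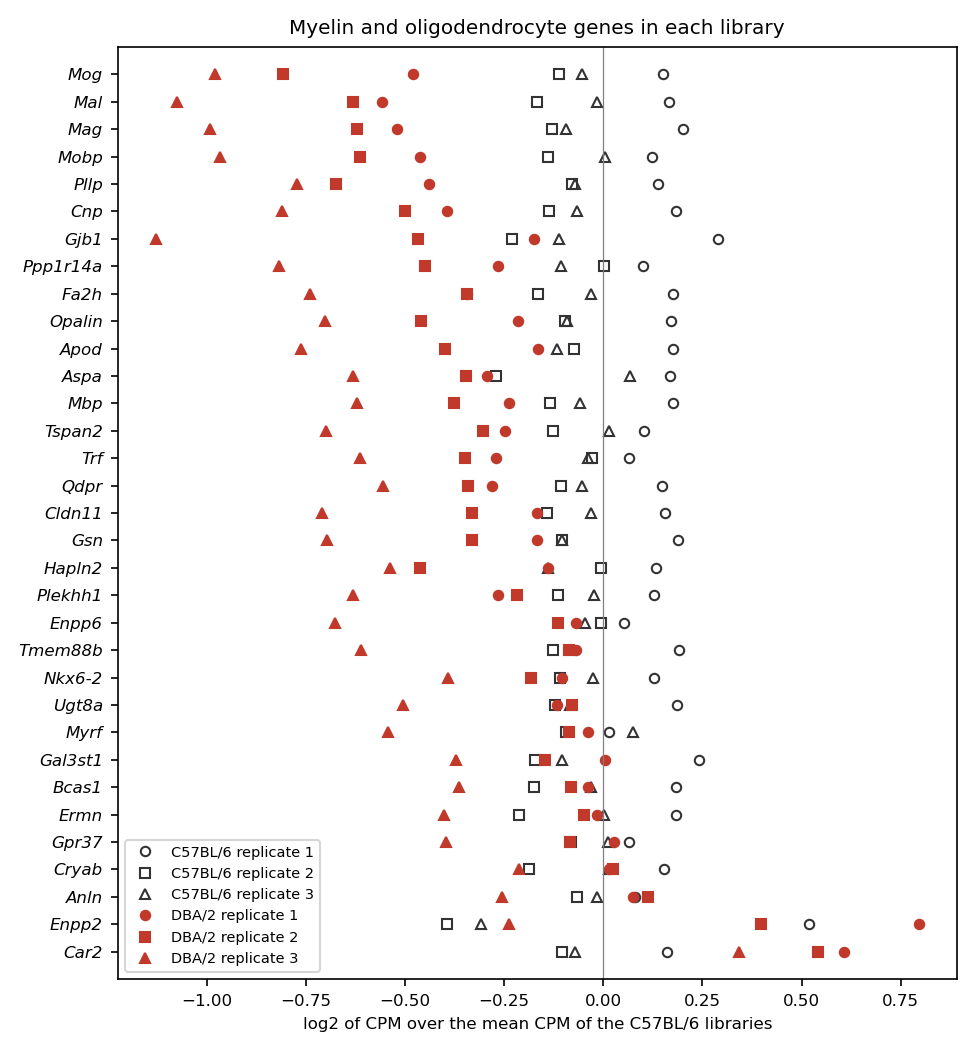
Level of each of the 33 genes in each library, as log2 of CPM over the mean CPM of the 3 C57BL/6 libraries (open black symbols, C57BL/6; filled red symbols, DBA/2; symbol shape, replicate number). Genes are ordered by their log2 fold change, and DBA/2 replicate 3 is the lowest DBA/2 library for all 33 genes.

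Genes for proteins of the sheath, its junctions and its nodes held the largest falls. Of 13 such genes 4 were called lower (30.8%, against 13.7% of all tested genes) and none higher. All 13 had a log2 fold change below 0, with a median of -0.52 and a range from -0.74 to -0.23. Mog, which encodes a glycoprotein on the outer face of the sheath (chromosome 17, 37010743 to 37023398, GRCm38), measured 79.2, 66.0 and 68.7 CPM in C57BL/6 and 51.1, 40.8 and 36.2 CPM in DBA/2. No library of one strain reached into the range of the other. The fall of Mog was 0.74 ± 0.13 on the log2 scale (a log2 fold change of -0.74, SE; edgeR, adjusted p = 0.00683), or 1.67-fold lower, and leaving out DBA/2 replicate 2 gave an adjusted p of 0.0667.

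Pllp, the gene of plasmolipin, a small proteolipid with 4 membrane spans that is related to the product of Mal (chromosome 8, 94674894 to 94696278), had the lowest adjusted p of the 33 genes. It measured 30.5, 26.2 and 26.4 CPM in C57BL/6 and 20.4, 17.4 and 16.2 CPM in DBA/2. The strains were well apart, and the log2 fold change of Pllp was -0.62 ± 0.09 (SE; edgeR, adjusted p = 2.39e-05). The call of Pllp held without each library in turn, with adjusted p from 9.36e-06 to 0.000524. Pllp shares 1128 exonic bases with the antisense gene Gm45767, which had 282 counts in C57BL/6 and 232 in DBA/2 and was not called. Since it is not given whether the counting used strand, the share of antisense reads in the value of Pllp is uncertain.

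Opalin, an oligodendrocyte membrane protein, measured 40.4, 33.5 and 33.7 CPM in C57BL/6 and 30.9, 26.1 and 22.0 CPM in DBA/2. Its strains did not overlap, with a log2 fold change of -0.44 ± 0.11 (SE, adjusted p = 0.0130) that had an adjusted p of 0.0831 without DBA/2 replicate 2. Hapln2, a link protein of the matrix around nodes of Ranvier, had 37.2 ± 3.52 in C57BL/6 against 28.8 ± 4.38 CPM for DBA/2 (SD, n = 3 each). It was called with an adjusted p of 0.0140 although C57BL/6 replicate 3, at 33.72 CPM, lay just under DBA/2 replicate 1, at 33.76 CPM, and the call was lost without C57BL/6 replicate 1 (adjusted p = 0.0619) and without DBA/2 replicate 2 (adjusted p = 0.0752).

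The most abundant sheath genes had log2 fold changes of like size with larger SEs and did not pass. Mobp, a basic protein of the sheath, measured 1300.4, 1084 and 1198 CPM in C57BL/6 and 866, 780 and 611 CPM in DBA/2. All DBA/2 libraries were below all C57BL/6 libraries, the log2 fold change of Mobp was -0.67 ± 0.16 (SE), and its adjusted p of 0.050007 lay just above the threshold. Mal, a proteolipid of lipid rafts, measured 364, 289 and 321 CPM in C57BL/6 and 220, 210 and 154 CPM in DBA/2 (log2 fold change -0.74 ± 0.18, adjusted p = 0.0541). Mag, an adhesion molecule of the membrane that faces the axon, measured 233, 185 and 190 CPM against 142, 132 and 102 CPM (log2 fold change -0.69 ± 0.17, adjusted p = 0.0509). Cnp, a phosphodiesterase that keeps cytoplasmic channels of the sheath open, measured 433, 347 and 364 CPM against 290, 269 and 217 CPM (log2 fold change -0.56 ± 0.15, adjusted p = 0.0637). These 3 genes likewise did not overlap between the strains. Leaving out DBA/2 replicate 3 brought Mobp to an adjusted p of 3.65e-05, the lowest of its leave-one-out fits, and leaving out C57BL/6 replicate 3 raised it to 0.148.

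Mbp, the major basic protein that zips the inner faces of the membrane, measured 3921, 3160 and 3329 CPM in C57BL/6 and 2941, 2671 and 2255 CPM in DBA/2. Each DBA/2 library was below each C57BL/6 library, but the log2 fold change of -0.40 ± 0.13 (SE) did not pass (edgeR, adjusted p = 0.109). Tspan2, a tetraspanin, and Cldn11, the claudin of the tight junctions between myelin turns, had log2 fold changes of -0.40 ± 0.14 and -0.38 ± 0.17 (SE) with adjusted p of 0.118 and 0.217, and their strains did not overlap either. Gjb1, the gap junction protein connexin 32, had 14.97 ± 2.93 in C57BL/6 against 10.3 ± 3.24 CPM for DBA/2 (SD, n = 3 each; adjusted p = 0.206), and Tmem88b had 99.9 ± 12.3 and 84.9 ± 16.9 CPM (adjusted p = 0.494). For both, the range of the DBA/2 libraries reached into that of C57BL/6.

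Sequence upstream of the start is shown for the 4 called genes of lowest adjusted p among those matched in the RefSeq promoter table (GRCm38.p6), to set letters beside genes that differed between the strains. The table's windows hold 250 bases before the RefSeq start. Where the GENCODE start used for the coordinates above lies further upstream, the run shown stops before it, which leaves 214 bases for Pllp, 238 for Ppp1r14a, 250 for Mog and 243 for Qdpr. Each run reads 5′ to 3′ on the gene's strand and is the reference sequence, which comes from C57BL/6. Capitals mark a match to a motif of MYRF, the regulator of myelin genes, searched as CTGGCAC and CTGGTAC on both strands. The regions are chr8:94696279-94696492 on the minus strand for Pllp, chr7:29289070-29289307 on the plus strand for Ppp1r14a, chr17:37023399-37023648 on the minus strand for Mog and chr5:45450237-45450479 on the minus strand for Qdpr.
Pllp: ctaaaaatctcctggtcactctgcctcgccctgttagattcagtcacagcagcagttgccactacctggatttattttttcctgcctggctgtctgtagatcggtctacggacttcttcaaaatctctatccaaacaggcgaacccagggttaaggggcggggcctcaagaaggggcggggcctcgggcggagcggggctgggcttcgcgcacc
Ppp1r14a: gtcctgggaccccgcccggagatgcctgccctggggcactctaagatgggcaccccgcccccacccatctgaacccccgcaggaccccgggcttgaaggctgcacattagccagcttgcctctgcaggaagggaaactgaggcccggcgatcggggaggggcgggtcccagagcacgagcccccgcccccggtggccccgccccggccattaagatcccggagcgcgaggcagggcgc
Mog: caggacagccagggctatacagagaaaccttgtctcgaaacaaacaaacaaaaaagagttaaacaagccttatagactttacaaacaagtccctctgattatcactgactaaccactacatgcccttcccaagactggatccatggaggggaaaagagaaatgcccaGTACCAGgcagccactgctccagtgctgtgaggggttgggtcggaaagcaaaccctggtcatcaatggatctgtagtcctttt
Qdpr: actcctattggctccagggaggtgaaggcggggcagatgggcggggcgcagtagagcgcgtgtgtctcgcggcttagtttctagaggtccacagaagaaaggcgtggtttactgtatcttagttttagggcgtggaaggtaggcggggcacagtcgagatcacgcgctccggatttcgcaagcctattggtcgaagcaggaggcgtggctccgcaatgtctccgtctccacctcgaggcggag
In Mog the match starts 83 bases before the RefSeq start and reads CTGGTAC on the opposite strand. The other 3 windows held no match to any motif searched.

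Motifs were searched in the same way in the 35 promoter windows of 25 of the 33 genes and in all 32851 windows of the table. The MYRF letters were found in 5 of the 35 windows (14.3%), of Cnp, Hapln2, Mag and Mog, against 5.93% of all windows. The SOX letters ACAAAG, a core recognised by SOX10 and its relatives, were found in 9 of 35 windows (25.7%), of 7 genes, against 16.5% of all windows. The E-box CAGCTG was found in 4 of 35 windows (11.4%) against 13% of all windows. Windows of 1 gene can overlap, and a match is a description of letters, not of binding. Mbp, Fa2h, Enpp2, Myrf, Bcas1, Trf, Car2 and Cryab were not matched.

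Among 6 genes for enzymes of lipids and related metabolites, 2 were called lower (33.3%, against 13.7% of all tested genes) and none higher. Their median log2 fold change was -0.23. Fa2h, which hydroxylates the fatty acids of myelin galactolipids, measured 65.2, 51.5 and 56.5 CPM in C57BL/6 and 45.50, 45.46 and 34.6 CPM in DBA/2. Its strains did not overlap (log2 fold change -0.46 ± 0.12, SE; edgeR, adjusted p = 0.0307). Aspa, which splits N-acetylaspartate to acetate used for lipid synthesis, measured 34.1, 25.1 and 31.8 CPM in C57BL/6 and 24.8, 23.8 and 19.6 CPM in DBA/2. The lowest C57BL/6 library of Aspa stood only slightly above the highest DBA/2 library, and the log2 fold change was -0.42 ± 0.11 (SE, adjusted p = 0.0132). The adjusted p of Fa2h was 0.0783 without C57BL/6 replicate 3 and 0.0667 without DBA/2 replicate 2, and that of Aspa was 0.0525 without C57BL/6 replicate 1 and 0.0573 without C57BL/6 replicate 3.

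The other steps of galactolipid synthesis had smaller differences that did not pass. Ugt8a, the enzyme that adds galactose to ceramide, had 87.3 ± 10.4 in C57BL/6 against 74.9 ± 11.6 CPM for DBA/2 (SD, n = 3 each; adjusted p = 0.367). Gal3st1, which adds sulfate to make sulfatide, had 13.2 ± 2.11 and 11.8 ± 1.52 CPM (adjusted p = 0.413). The libraries of the strains overlapped for both genes. Enpp6, a choline phosphodiesterase of newly forming oligodendrocytes, measured 14.8, 14.2 and 13.82 CPM in C57BL/6 and 13.6, 13.2 and 8.93 CPM in DBA/2 (log2 fold change -0.25 ± 0.13, SE, adjusted p = 0.183). Its C57BL/6 libraries were close together, and the distance in DBA/2 came mostly from replicate 3.

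Enpp2, which encodes autotaxin, the enzyme that makes lysophosphatidic acid and is abundant in choroid plexus as well as in oligodendrocytes, did not follow the other genes. It measured 806, 429 and 454 CPM in C57BL/6 and 978, 742 and 477 CPM in DBA/2, a log2 fold change of 0.38 ± 0.41 (SE; edgeR, adjusted p = 0.611). Replicate 1 was the highest library of each strain, and the strains overlapped widely. Ttr, the transthyretin of the choroid plexus, measured 1368, 885 and 582 CPM in C57BL/6 and 2543, 1818 and 1144 CPM in DBA/2. The summed level of 10 choroid plexus markers ran from 682 to 1530.3 CPM in C57BL/6 and from 1253 to 2763 CPM in DBA/2. None was at 0 counts, 9 of 10 log2 fold changes were above 0 and none was called. Without C57BL/6 replicate 1 or DBA/2 replicate 3, 1 was called higher, as were 1151 of 17850 and 1405 of 17990 tested genes. The part of these markers' tissue in the value of Enpp2 was not tested.

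The regulators of the oligodendrocyte program among the chosen genes had small differences. None of Myrf, Nkx6-2 and Gpr37 was called, and their log2 fold changes ran from -0.22 to -0.14, with a median of -0.20. Myrf, the transcription factor that drives myelin genes, measured 78.7, 73.0 and 82.1 CPM in C57BL/6 and 75.8, 73.4 and 53.5 CPM in DBA/2. DBA/2 replicates 1 and 2 lay inside the C57BL/6 range and replicate 3 lay below it (log2 fold change -0.20 ± 0.135, SE, adjusted p = 0.369). Nkx6-2, a homeobox factor of mature oligodendrocytes, had 16.9 ± 1.43 and 14.5 ± 1.46 CPM (SD, n = 3 each; adjusted p = 0.140), and shares exonic bases with Inpp5a on the opposite strand, which was called lower (log2 fold change -0.36, adjusted p = 0.000441). Gpr37, a receptor that restrains oligodendrocyte differentiation, had 99.1 ± 5.11 and 89.9 ± 13.2 CPM (SD, n = 3 each; adjusted p = 0.373). Sox10, a lineage transcription factor outside the chosen genes, had a larger fall, given below (log2 fold change -0.74; edgeR, adjusted p = 2.59e-08). Whether Myrf, Nkx6-2 and Gpr37 differ from the sheath genes in their response was not tested.

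**Figure D2:**
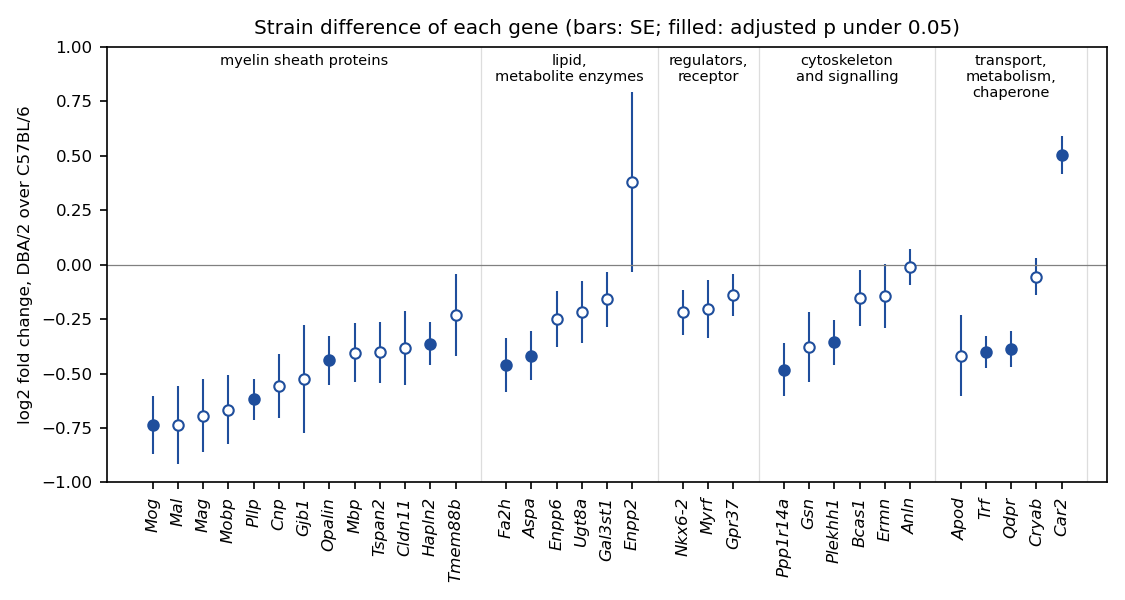
Log2 fold change, DBA/2 over C57BL/6, of each gene, grouped by role, with bars for the SE. Filled points passed an adjusted p of 0.05, and the sheath genes Mog, Mal and Mag lie lowest at -0.74, -0.74 and -0.69.

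Cytoskeletal and signalling genes ranged in log2 fold change from -0.48 to -0.01. Of these 6 genes 2 were called lower (33.3%, against 13.7% of all tested genes) and none higher, with a median of -0.26. Ppp1r14a, an inhibitor of myosin phosphatase, measured 17.2, 16.0 and 14.9 CPM in C57BL/6 and 13.3, 11.7 and 9.08 CPM in DBA/2. The strains did not overlap, and the call (log2 fold change -0.48 ± 0.12, SE; edgeR, adjusted p = 0.00490) held without each library in turn. Plekhh1 measured 65.9, 55.8 and 59.4 CPM in C57BL/6 and 50.2, 51.9 and 39.0 CPM in DBA/2, also without overlap (log2 fold change -0.36 ± 0.10, SE, adjusted p = 0.0293). Its adjusted p was 0.0697 without C57BL/6 replicate 1 and 0.0715 without C57BL/6 replicate 3. Plekhh1 shares 992 exonic bases with Pigh on the opposite strand, which was not called (log2 fold change 0.08).

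Gsn, the actin-severing gelsolin, had 70.6 ± 8.57 in C57BL/6 against 54.2 ± 9.82 CPM for DBA/2 (SD, n = 3 each), and the strains did not overlap although it was not called (adjusted p = 0.181). Bcas1, a marker of early myelinating cells, and Ermn, the actin-binding ermin, had log2 fold changes of -0.15 ± 0.13 and -0.14 ± 0.15 (SE) with overlapping libraries (adjusted p = 0.488 and 0.579). Anln, a septin and actin scaffold, measured 54.4, 49.2 and 50.9 CPM in C57BL/6 and 54.2, 55.7 and 43.2 CPM in DBA/2. Its log2 fold change of -0.0099 ± 0.081 (SE, adjusted p = 0.953) changed sign with library size alone as the scaling (0.0148).

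Genes of transport, metabolism and stress held called differences in both directions. Trf, the iron carrier transferrin, measured 63.0, 59.0 and 58.6 CPM in C57BL/6 and 49.9, 47.3 and 39.3 CPM in DBA/2. The C57BL/6 libraries were tight and the strains did not overlap (log2 fold change -0.40 ± 0.07, SE; edgeR, adjusted p = 0.000288), and the call held without each library in turn. Of the 3320 exonic bases of Trf, 2108 are shared with Gm20425, an annotated gene on the same strand that had 3 counts in all. How the authors' counting treated reads from shared bases is not given, so the level of Trf is uncertain. Qdpr, which regenerates the cofactor tetrahydrobiopterin, measured 220, 184 and 191 CPM in C57BL/6 and 164, 157 and 135 CPM in DBA/2, without overlap (log2 fold change -0.39 ± 0.08, SE, adjusted p = 0.00688, which was 0.0610 without DBA/2 replicate 2).

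Car2, the cytosolic carbonic anhydrase, was the one gene called higher. It measured 266, 222 and 226 CPM in C57BL/6 and 363, 346 and 302 CPM in DBA/2, so that the lowest DBA/2 library exceeded the highest C57BL/6 library. The log2 fold change of Car2 was 0.50 ± 0.09 (SE; edgeR, adjusted p = 0.00323), or 1.42-fold higher, and ran from 0.45 to 0.59 without each library in turn. Replicate 1 was the highest library of Car2 in both strains. Apod, a lipid-binding lipocalin, had 126 ± 14.2 in C57BL/6 against 94.0 ± 19.1 CPM for DBA/2 (SD, n = 3 each), did not overlap and was not called (adjusted p = 0.214). Cryab, the small heat shock protein αB-crystallin, had 75.8 ± 8.91 and 73.0 ± 6.59 CPM, a log2 fold change of -0.05 ± 0.08 (SE, adjusted p = 0.713).

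Per unit of length, Mbp was the most abundant of the 33 transcripts in both strains, at 409 ± 46.3 FPKM in C57BL/6 and 314 ± 42.1 FPKM in DBA/2 (SD, n = 3 each; FPKM are fragments per kilobase scaled to the library total, here the authors' values). In C57BL/6 Mobp came next at 173 ± 15.5 FPKM, followed by Enpp2 at 160 ± 59.7, Mal at 116 ± 13.3, Qdpr at 110 ± 10.3, Cnp at 104 ± 12.2, Car2 at 97.3 ± 9.80 and Cldn11 at 90.6 ± 9.46 FPKM. Apart from Mbp, neighbours among these 8 genes differ by less than 1 SD of the more variable one, except that Mobp and Mal, on either side of Enpp2, are further apart than their spread. In DBA/2 Enpp2 at 212 ± 72.9 FPKM and Car2 at 140 ± 13.4 FPKM stood above Mobp at 111 ± 19.3 FPKM, and Mal at 70.61 ± 13.1 and Cldn11 at 70.58 ± 13.2 FPKM were level. The lowest of the 33 was Enpp6, at 2.203 ± 0.0709 and 1.87 ± 0.411 FPKM.

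**Figure D3:**
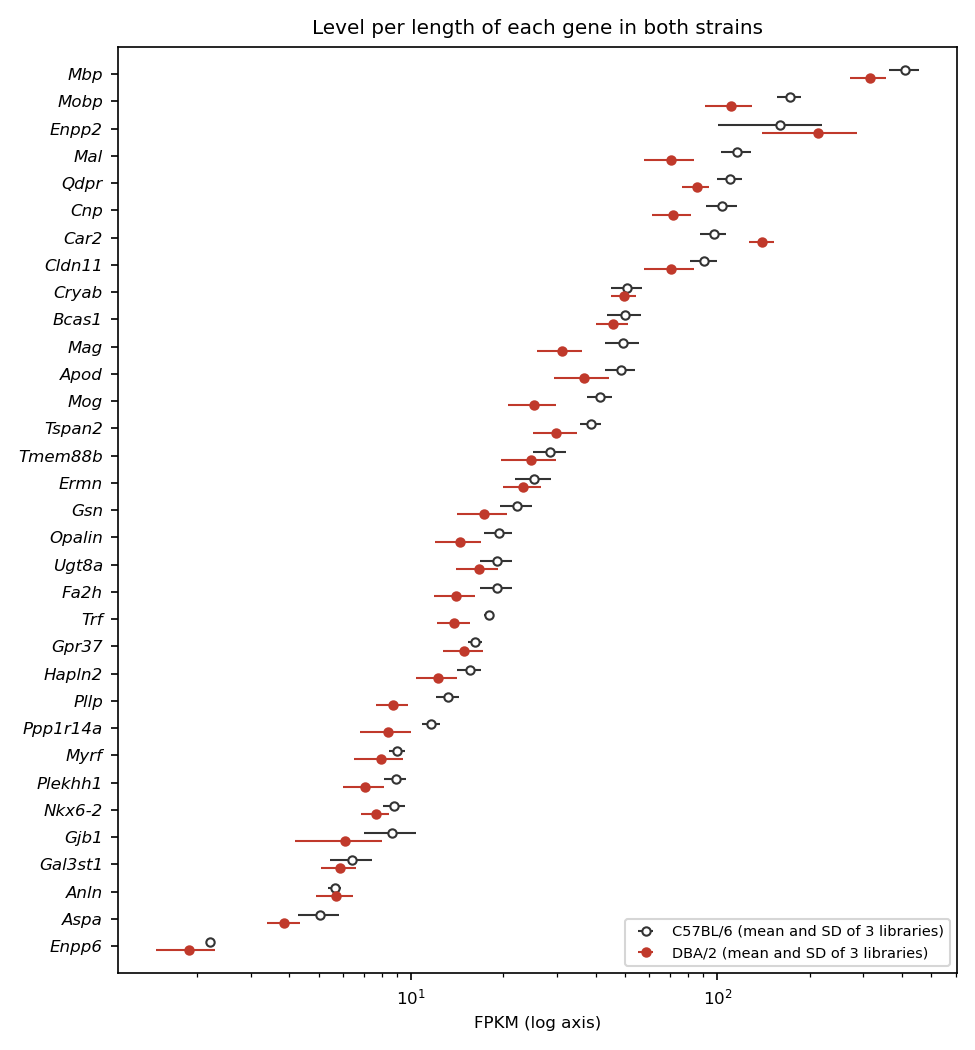
Mean FPKM of each gene with its SD over 3 libraries (log axis; open black points, C57BL/6; filled red points, DBA/2). Levels range from 2.203 FPKM for Enpp6 to 409 FPKM for Mbp in C57BL/6, and Car2 is higher in DBA/2 beyond its spread.

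The 33 genes moved together from library to library within a strain. C57BL/6 replicate 1 was the highest C57BL/6 library for 32 of the 33 genes and C57BL/6 replicate 2 the lowest for 28. DBA/2 replicate 1 was the highest DBA/2 library for 29, and DBA/2 replicate 3 the lowest for all 33. The 33 genes took 0.940%, 0.746% and 0.796% of all counts in C57BL/6 and 0.764%, 0.690% and 0.547% in DBA/2, so that by this share DBA/2 replicate 1 lay between C57BL/6 replicates 2 and 3. Their mean log2 level was 6.52 ± 0.148 in C57BL/6 and 6.19 ± 0.234 in DBA/2 (SD, n = 3 each, on the log2 scale of CPM plus 0.5). The genes share these libraries, so this common movement gives no independent replicates of the strain difference.

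Markers of thalamus and habenula, regions next to the hippocampus, were mostly lower in DBA/2, like the myelin genes. Of 21 markers of thalamus and habenula 10 were called lower (47.6%, against 13.7% of all tested genes) and none higher. Their median log2 fold change was -0.96. Without DBA/2 replicate 2, 6 of them were called lower, and without DBA/2 replicate 1, 14. In those fits 12.6% and 12.5% of all tested genes were called lower. Their summed level ran from 1395 to 1759 CPM in C57BL/6 and from 1068 to 1162 CPM in DBA/2. Their mean log2 level stood at 5.06, 4.603 and 4.94 for C57BL/6 against 4.23, 3.68 and 3.54 for DBA/2. Within each strain this is the order of the 33 myelin genes, at 6.68, 6.40 and 6.47 in C57BL/6 and 6.37, 6.26 and 5.92 in DBA/2. In DBA/2 the 10 choroid plexus markers had this order too, at 4.92, 4.43 and 3.81. In C57BL/6, at 4.46, 3.61 and 3.64, replicate 1 was highest and replicates 2 and 3 were nearly level. By summed CPM, at 1530, 982 and 682 in C57BL/6, replicate 2 lay above replicate 3. Between the strains the choroid plexus markers went the other way, with 9 of 10 log2 fold changes above 0 and none called. Tcf7l2, a marker of thalamic neurons that oligodendrocytes also express, measured 42.6, 22.7 and 27.0 CPM in C57BL/6. It measured 15.3, 5.83 and 5.26 CPM in DBA/2 and was not called. Prkcd, a thalamic kinase, measured 147, 105 and 100.6 CPM against 56.5, 54.4 and 44.6 CPM. Prkcd was called (edgeR, adjusted p = 0.0194), but in only 3 of the 6 fits that each left out 1 library. None of these markers was at 0 counts in any library. The part of such tissue in the fall of the myelin genes was not tested.

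**Figure D4:**
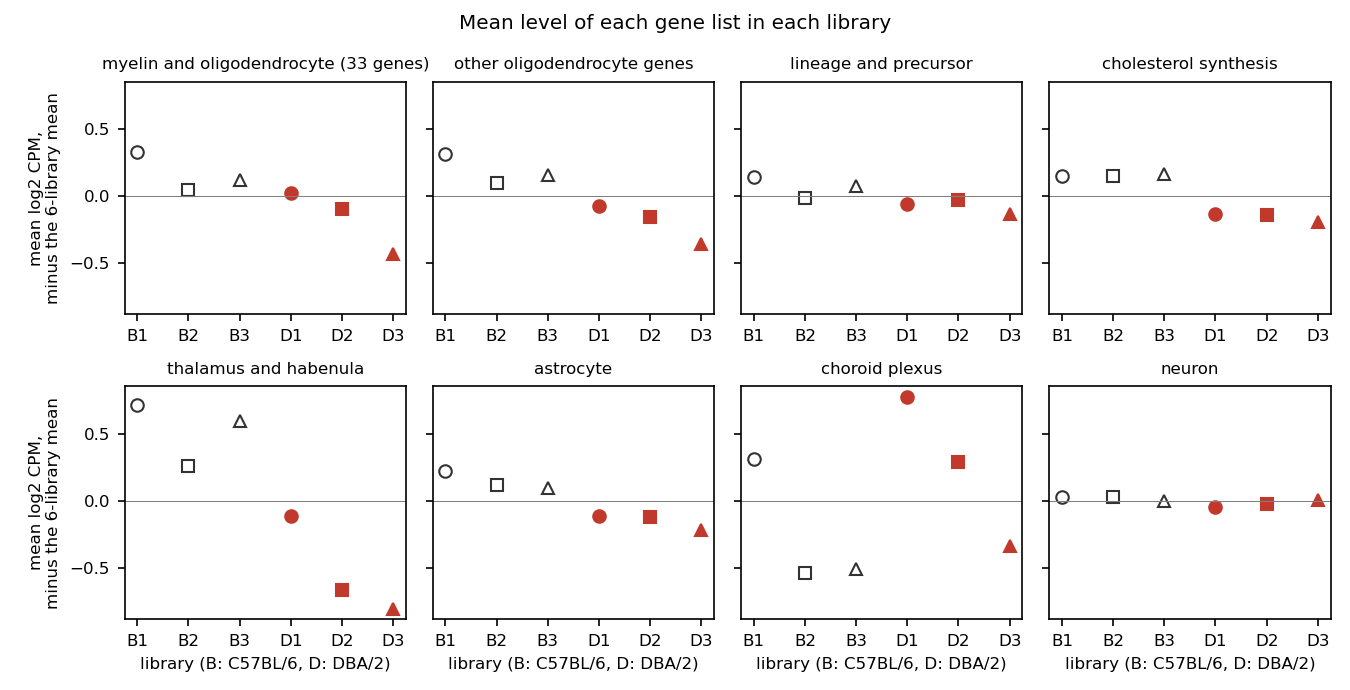
Mean log2 level of the 33 genes and of 7 other gene lists in each library, minus the mean over the 6 libraries (B, C57BL/6; D, DBA/2; numbers, replicates). Myelin genes and thalamus and habenula markers have the same order of libraries within each strain. Choroid plexus markers have it in DBA/2, with C57BL/6 replicates 2 and 3 nearly level. Over all 6 libraries, choroid plexus markers are highest in DBA/2 replicate 1.

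Defining markers of the labelled tissue and of oligodendrocytes were present. Mbp, Mog, Mag, Mobp, Cnp, Cldn11, Opalin, Mal, Ermn and Myrf were present in every library, at 22.0 CPM or more. Markers of hippocampal neurons were present in all 6 libraries, with Prox1 at 119 to 135 CPM, Wfs1 at 114 to 140 CPM and Neurod6 at 191 to 257 CPM. They were not all level between the strains. C1ql2 measured 59.6, 59.2 and 50.6 CPM in C57BL/6 and 26.2, 21.3 and 24.1 CPM in DBA/2. Zbtb20 measured 496, 472 and 518 CPM against 571, 679 and 598 CPM, and Neurod6 was also higher in every DBA/2 library. Of 14 neuron markers 3 were called lower (21.4%, against 13.7% of all tested genes) and none higher, with a median log2 fold change of 0.00. Of 18 astrocyte markers 12 were called lower (66.7%) and 2 higher (11.1%, against 9.09% of all tested genes), with a median of -0.33. Of 18 microglia markers 10 were called lower (55.6%) and 1 higher (5.56%), with a median of -0.33. Fewer microglia markers were called lower without the C57BL/6 libraries that carried Xist, as over all tested genes.

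Other oligodendrocyte genes, outside the 33, were also lower more often than higher. Of 40 tested of a list of 42, 16 were called lower (40%, against 13.7% of all tested genes) and 1 higher (2.5%, against 9.09%). The median log2 fold change was -0.33. Without the C57BL/6 libraries that carried Xist fewer were called lower, as over all tested genes. Padi2, an enzyme that citrullinates myelin basic protein, fell to 14.0 ± 1.98 CPM in DBA/2, against 44.8 ± 3.13 CPM in C57BL/6 (SD, n = 3 each). Its log2 fold change of -1.67 ± 0.09 (SE; edgeR, adjusted p = 1.34e-12) lay beyond the lowest of the 33 genes, -0.74. Klk6, a serine protease, fell from 1.99 ± 0.269 to 0.379 ± 0.0742 CPM (SD, n = 3 each). These low levels rest on 37, 28 and 34 counts in C57BL/6 and 7, 5 and 6 counts in DBA/2.

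Lineage and precursor markers were divided. Of 20 such genes 9 were called lower (45%, against 13.7% of all tested genes) and none higher. However, 10 had a log2 fold change above 0 and the median was -0.02. Without the C57BL/6 libraries that carried Xist fewer were called lower, as over all tested genes, and some were called higher. Without C57BL/6 replicate 1 alone 1 was called higher, as were 1151 of 17850 tested genes. Sox10, the transcription factor of the whole oligodendrocyte lineage, fell to 36.9 ± 1.09 CPM in DBA/2, against 61.9 ± 6.66 CPM in C57BL/6 (SD, n = 3 each), a log2 fold change of -0.74 ± 0.07 (SE; edgeR, adjusted p = 2.59e-08). Sox10 fell by as much as Mog, while Myrf did not pass, as given above. Pdgfra, the growth factor receptor of precursors, measured 61.0, 63.6 and 64.9 CPM in C57BL/6 and 54.0, 55.5 and 52.9 CPM in DBA/2, with no order like that of the myelin genes among the C57BL/6 libraries.

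Lipid synthesis outside the 33 genes was mixed for sphingolipids and fatty acids and lower for cholesterol. All 22 genes of cholesterol synthesis had a log2 fold change below 0, with a median of -0.26, and 12 were called lower and none higher. Fewer of them were called lower without the C57BL/6 libraries that carried Xist, as over all tested genes. With all libraries the share of the cholesterol list called lower was 54.5%, against 13.7% of all tested genes. Sc5d, which acts late in the pathway, fell from 94.8 ± 5.52 to 42.6 ± 2.08 CPM and Cyp51, the sterol demethylase, from 82.2 ± 3.22 to 42.1 ± 0.267 CPM (SD, n = 3 each). The mean log2 level of the cholesterol list stood at 5.50, 5.50 and 5.52 for C57BL/6 against 5.22, 5.21 and 5.16 for DBA/2, so that C57BL/6 replicate 1 did not stand apart as it did for the myelin genes. Of 27 genes of sphingolipid and very long chain lipid synthesis 7 were called lower and 4 higher (median log2 fold change -0.03). The shares were 25.9% and 14.8%, against 13.7% and 9.09% of all tested genes. Without the C57BL/6 libraries that carried Xist fewer were called in either direction, as over all tested genes. Without C57BL/6 replicate 1, C57BL/6 replicate 2 or DBA/2 replicate 1, 2 were higher. Over all tested genes those fits called 1151 of 17850, 1367 of 17969 and 1483 of 17804 higher. Among the called genes Elovl1, an elongase of very long fatty acids, fell from 20.6 ± 2.46 to 11.8 ± 0.3004 CPM, and Acaca, which makes malonyl-CoA, from 68.7 ± 3.51 to 22.3 ± 3.90 CPM, while Scd3, a fatty acid desaturase, rose from 3.66 ± 0.353 to 5.60 ± 0.694 CPM (SD, n = 3 each; log2 fold change 0.61, edgeR, adjusted p = 0.0108).

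Genes of the axon that meet the sheath were called in both directions, more of them higher. Of 19 genes of nodes of Ranvier and their flanks 11 did not pass, 3 were called lower (15.8%, against 13.7% of all tested genes) and 5 higher (26.3%, against 9.09%), with a median log2 fold change of 0.02. Without the C57BL/6 libraries that carried Xist fewer were called in either direction, as over all tested genes. With library size alone 1 was called lower, as were 12.6% of all tested genes. Sptbn4, the spectrin of nodes, rose from 353 ± 16.2 to 427 ± 17.6 CPM and Scn8a, the main sodium channel of mature nodes, from 395 ± 15.03 to 471 ± 16.7 CPM, while Cntnap2, an adhesion protein beside the paranode, fell from 130 ± 2.82 to 105 ± 4.71 CPM (SD, n = 3 each).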

How the data were processed

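Hippocampus RNA of 3 C57BL/6 and 3 DBA/2 libraries was analysed from the deposited gene table, which holds raw counts and FPKM. The deposited FPKM values match, within 0.005, a recalculation from count, exonic length and library total. The submitters' processing notes name Trimmomatic 0.30, HISAT2 2.0.1, Cufflinks 2.2.1 and GRCm38. The sources used here do not give the counter, the annotation or the strand setting. A further 12 columns belong to no labelled library and were left out.

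Total counts were 13867280 to 20185683 in C57BL/6 and 13839366 to 16912153 in DBA/2. Strains came from the strain label and replicate numbers from titles. Counts were tested with edgeR 4.0.16 (quasi-likelihood F test, robust, TMM, filterByExpr by strain; R 4.3.3) after a check on simulated data, with Benjamini-Hochberg adjustment over 17517 genes, and the SE is the log2 fold change divided by the square root of F. Alternatives used DESeq2 1.42.0, limma 3.58.1 (voom; log2 of FPKM plus 1 or 0.1), other scalings and filters, a replicate block and fewer libraries. The 33 genes, the other lists and the tests were chosen with earlier results of these data known. Genes to be named were the 33, plus from each other list the called genes of largest change (at most 3) or, with none called, the 2 most abundant, and fixed markers; those of immune, astrocyte, neuron and Schwann lists are given as counts. Of 9 Schwann cell markers 5 were tested and 1 was called lower (20%, against 13.7% of all tested genes). Coordinates and shared exonic bases, found for 12 of the 33 genes, come from GENCODE M21 (99.6% of IDs found). No similar copy of the 33 genes was found with BLAST 2.17.0 (at least 200 bases at 95% identity).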

Additional observations from a re-analysis of the deposited data

How the results depend on the processing

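Of the 33 genes, 26 kept a log2 fold change below 0 in all 16 alternatives, and Pllp and Trf kept their call in all 16. The count called lower was 10 as reported, 16 with the DESeq2 Wald test, 4 without the C57BL/6 libraries that carried Xist (an alternative chosen after seeing the data, which left 1 library in that strain), and 5 to 17 when 1 library was left out; the count called higher was 0 to 1 in those fits. The cause of these shifts was not tested. Over all genes, 2407 lower and 1593 higher became 1321 and 691 without the C57BL/6 libraries that carried Xist, and library size alone gave 2202 and 1945. With the replicate number as a block 21 of the 33 genes were called lower, as were 13.4% of all tested genes. In that fit 6 of the 10 choroid plexus markers were called higher, as were 1475 of 17517 tested genes. Same-numbered libraries' deviations from their strain means had correlations of 0.13, -0.079 and 0.0030. C57BL/6 replicate 2 correlated best with DBA/2 replicate 3 (0.12). With 3 libraries per strain these values cannot decide whether the numbers pair the libraries, and no pairing is known. The values that changed sign were all of genes never called. Without the C57BL/6 libraries that carried Xist, log2 fold changes were 0.0181 for Gal3st1, 0.0239 for Bcas1, 0.075 for Ermn, 0.059 for Anln and 0.14 for Cryab. For Anln they were 0.0148 with library size alone, 0.0041 and 0.0036 with limma on log2 FPKM plus 1 and plus 0.1, and -0.076 to 0.096 when 1 library was left out, and for Cryab -0.13 to 0.028 when 1 library was left out. Summing counts over similar copies gave no value because no copy was found, and a limit of 0.5 CPM of Xist left 1 library per strain and was not run. No depth limit applied to the 33 genes, which had counts in every library.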
